A study of Mus musculus with 17 samples.

Results

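The genes described here were 46 genes of endothelial identity and angiogenesis, chosen by gene symbol from the 21798 genes of a left ventricular RNA-seq table. They comprised 9 ligands, 13 receptors, 13 endothelial identity markers, 6 transcription factors, 3 leukocyte adhesion genes and 2 modulators of vessel growth. All 46 were in the table, and all 46 were among the 16218 genes that passed a filter on low values, a CPM (read count scaled to a common library total) of at least 0.5 in at least 3 libraries.

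The libraries were made from the left ventricular apex of male C57Bl6/J mice that carried no transgene in the labels and were 7 to 8 weeks old at surgery. Transverse aortic constriction (TAC) ties the aorta against a needle and leaves the left ventricle pumping against a raised pressure, and Sham mice were the surgical controls. One week after surgery the mice began 6 gavages, spread over 2 weeks, of either 29P at 50 μg/kg or the same volume of saline, called Veh, and hearts were collected 3 weeks after surgery. 29P is an oral prodrug of an RGD mimetic that binds αvβ3 integrin, a receptor of the vessel wall and of other cells. The 4 groups were Sham Veh (n = 5, libraries S5, S6, S13, S19 and S20), Sham 29P (n = 3, S4, S14 and S15), TAC Veh (n = 3, S2, S12 and S16) and TAC 29P (n = 6, S1, S3, S8, S9, S11 and S18). Before deposit, 3 libraries were left out, 1 of Sham 29P and 2 of TAC Veh, and 1 of the 2 TAC Veh libraries was left out because it clustered with Sham libraries.

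Endothelial cells line every vessel of the heart and are held together by junction proteins such as VE-cadherin and PECAM-1. Their growth and quiescence are set by a few ligand and receptor systems, chiefly the VEGF family with its receptor tyrosine kinases, the angiopoietins with the receptor TIE2, and Notch signalling between neighbouring endothelial cells. Some ligands, such as VEGF-A and angiopoietin-1, come largely from cells outside the vessel lining and others, such as angiopoietin-2 and DLL4, from the endothelium itself, which also bears most of the receptors.

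Facts of the libraries bear on every value that follows. The value of 1 read in CPM put the depth at about 14200000 to 23800000 reads per library. The 16 genes of the mitochondrial genome took 33.5% ± 3.64 (SD, n = 5) of the CPM total in Sham Veh and 35.6% ± 3.83 (n = 3) in Sham 29P, against 26.1% ± 2.22 (n = 3) in TAC Veh and 27.3% ± 1.69 (n = 6) in TAC 29P. On the CPM scale the median gene was 0.35 higher (log2) in TAC Veh than in Sham Veh and 0.37 higher in TAC 29P than in Sham 29P, and with TMM factors, which set the bulk of the genes equal between libraries, these medians were 0.01 and 0.01. Changes between Sham and TAC are given below on the CPM scale, as deposited, with the TMM value beside them. In Sham Veh S19 and S20 and TAC 29P S18 the atrial transcripts Sln, Myl4 and Myl7 summed to 2543, 2032 and 1015 CPM, against 0.353 to 5.75 CPM in the other 14 libraries. Library S14 of Sham 29P had the lowest TMM factor, 0.762, and the lowest value of all 17 libraries for 23 of the 46 genes on the CPM scale and for 16 with TMM factors, while 32.4% of all genes tested were lowest there.

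The 46 genes differed widely in level. Levels are given per kilobase of exon, over all annotated exons of a gene, so comparison between genes is approximate. On this scale the Sham Veh mean was highest for Vegfb, a VEGF ligand of cardiac muscle, at 66.0 CPM per kb. It was followed by Cdh5, which encodes VE-cadherin, at 44.4, by Vegfa, the main endothelial growth factor, at 42.5, and by Pecam1, the junction marker, at 32.0 CPM per kb. The VEGF receptor Kdr stood at 18.8, the angiopoietin receptor Tek at 13.9, and the decoy receptor Flt1 at 10.8 CPM per kb. Angpt1, the ligand that activates TIE2, reached 11.2 CPM per kb, and its context-dependent antagonist Angpt2 only 1.19. The lowest of the 46 was Selp, the leukocyte adhesion receptor P-selectin, at 0.0749 CPM per kb.

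The members' spread differed between the groups. The median SD of log2 CPM over the members was 0.41 in Sham Veh, 0.51 in Sham 29P, 0.28 in TAC Veh and 0.23 in TAC 29P, beside 0.31, 0.36, 0.23 and 0.22 over all genes tested. Pecam1 was the steadiest member in Sham Veh, with an SD of 0.08, and Aplnr, the apelin receptor, the most variable, with an SD of 1.19.

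**Figure D1:**
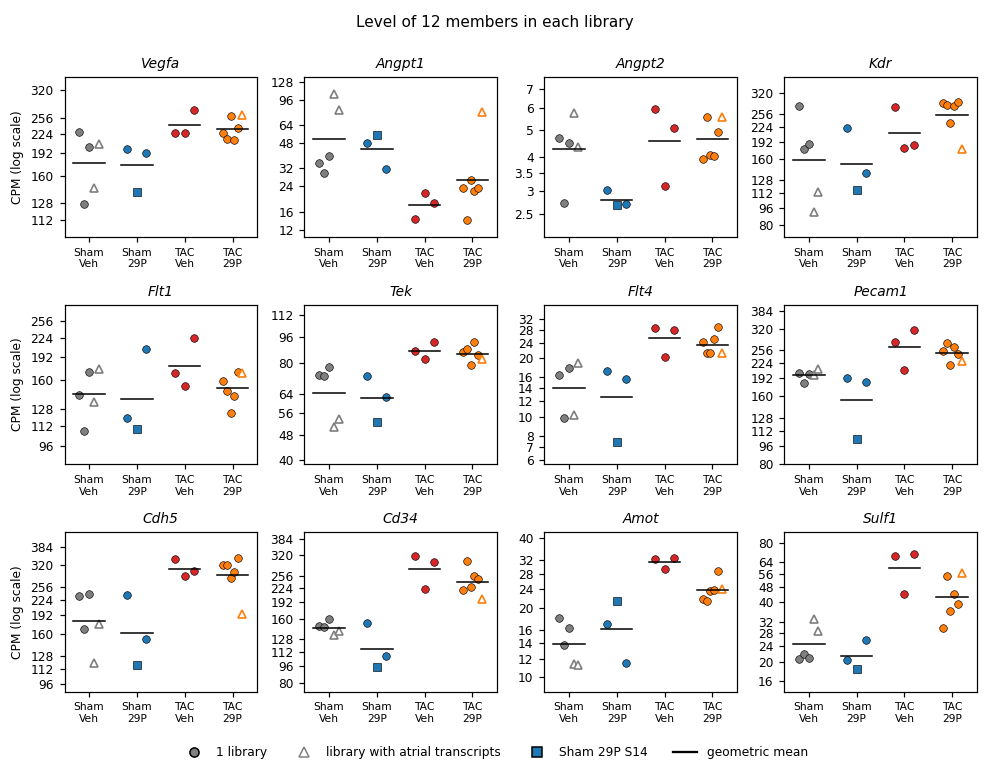
Level of 12 of the 46 genes in each of the 17 libraries, in CPM on a log2-scaled axis, by group. Each point is a library, bars are geometric means, triangles are the 3 libraries with atrial transcripts and the square is Sham 29P S14. Cd34, Amot and Sulf1 in the TAC Veh libraries lie above every Sham Veh library, and Angpt1 in the TAC Veh libraries lies below every Sham Veh library.

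The first comparison, TAC Veh against Sham Veh, asks what 3 weeks of pressure overload did to these genes without the compound. On the CPM scale 12 of the 46 genes, receptors and endothelial markers among them, were higher in TAC Veh at a Benjamini-Hochberg adjusted p of 0.05 or less in limma, and 1 ligand, Angpt1, was lower. Over all 16218 genes the same test called 22.5% higher and 1.91% lower, so the share of members called higher, 12 of 46, was near the background. The median log2 fold change of the members was 0.57, against 0.35 over all genes, and 37 of 46 members lay above the median of all genes. With TMM factors 3 members were higher (Cd34, Amot and Sulf1) and 1 lower (Angpt1), against 4.03% and 5.51% of all genes, and the medians were 0.24 for the members and 0.01 for all genes. In bulk tissue, more or fewer endothelial cells and more or less RNA per cell cannot be told apart.

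By role, 5 of 13 receptors, 4 of 13 identity markers, 1 of 6 transcription factors, both modulators and 0 of 3 adhesion genes were higher in TAC Veh, and 0 of 9 ligands. At an unadjusted p of 0.05 or less, 23 members were higher, against 37.4% of all genes, and 1 was lower, against 3.48%. The TAC Veh and Sham Veh libraries did not overlap for 14 members: 13 lay wholly above, against 27.6% of all genes tested, and 1, Angpt1, lay wholly below, against 2.23%.

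The identity marker with the firmest rise was Cd34, a sialomucin of endothelial and progenitor cells, which also marks fibroblast progenitors. It read 148, 146, 160, 134 and 140 CPM in the Sham Veh libraries S5, S6, S13, S19 and S20 and 317, 221 and 298 CPM in the TAC Veh libraries S2, S12 and S16. Every TAC Veh library stood above every Sham Veh library. Cd34 was 1.89-fold higher, a log2 fold change of 0.92 (SE 0.16, limma adjusted p = 0.00181), and 0.59 with TMM factors (adjusted p = 0.00883).

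Mcam, an adhesion molecule of endothelial cells and pericytes also called CD146, read 51.9, 33.9, 44.6, 40.9 and 52.8 CPM in Sham Veh and 87.0, 57.1 and 98.5 CPM in TAC Veh. These groups did not overlap, and the log2 fold change was 0.83 (SE 0.23, limma adjusted p = 0.0175). Mmrn2, a matrix protein laid down around endothelium, rose by 0.67 (SE 0.15, limma adjusted p = 0.00800). Cdh5 read 119 to 238 CPM in Sham Veh and 286 to 338 CPM in TAC Veh, again without overlap, and rose by 0.76 (SE 0.23, limma adjusted p = 0.0276). Relative to the TMM scale these 3 genes were 0.50, 0.34 and 0.43 higher, with adjusted p of 0.0850, 0.0511 and 0.169, and were not called. On the CPM scale, 8 limma fits each left out 1 library. Cdh5 lost its call in 4 of them, Mcam in 2 and Mmrn2 in 1.

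Other identity markers did not pass. Pecam1 read 203, 183, 201, 199 and 212 CPM in Sham Veh and 280, 210 and 315 CPM in TAC Veh. Its lowest TAC Veh library fell just within the Sham Veh range, and the log2 fold change was 0.41 (SE 0.17, limma adjusted p = 0.0777). Emcn, a capillary and venous sialomucin, differed by 0.11 (adjusted p = 0.627) and was 0.22 lower with TMM factors. The remaining 7 markers, Esam, Vwf, Cldn5, Egfl7, Plvap, Thbd and Nos3, had log2 fold changes of 0.48 to 0.63 and adjusted p of 0.0646 to 0.494.

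Promoters of 29 members were in the reference table, and 3 are shown because the results turn on these genes: Cd34 and Mcam, which were higher in TAC with and without 29P, and the receptor gene Tek, which differed little on the TMM scale. Each is a RefSeq window of 300 bases on GRCm38.p6, written 5′ to 3′ on the gene's strand from 250 bases before the RefSeq start site, and capitals mark the core of the ETS motif, GGAAG on either strand, the family to which the endothelial factors Erg and Fli1 belong. The windows are chr1:194938571-194938870 (+) for Cd34, chr9:44134408-44134707 (+) for Mcam and chr4:94739039-94739338 (+) for Tek. The RefSeq start lies 189 bases from the GENCODE gene start for Mcam, 2 for Cd34 and 0 for Tek.
Cd34: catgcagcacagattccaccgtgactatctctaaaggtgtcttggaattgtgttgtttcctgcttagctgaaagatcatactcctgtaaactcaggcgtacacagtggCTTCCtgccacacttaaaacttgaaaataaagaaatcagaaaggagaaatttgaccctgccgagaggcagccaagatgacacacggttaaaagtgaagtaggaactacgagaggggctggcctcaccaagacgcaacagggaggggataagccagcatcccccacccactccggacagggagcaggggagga
Mcam: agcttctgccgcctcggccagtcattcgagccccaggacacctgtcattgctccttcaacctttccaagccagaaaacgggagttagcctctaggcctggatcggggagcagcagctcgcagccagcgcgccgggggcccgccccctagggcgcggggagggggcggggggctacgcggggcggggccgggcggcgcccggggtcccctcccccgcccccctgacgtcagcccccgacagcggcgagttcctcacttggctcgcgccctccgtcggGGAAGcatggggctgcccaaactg
Tek: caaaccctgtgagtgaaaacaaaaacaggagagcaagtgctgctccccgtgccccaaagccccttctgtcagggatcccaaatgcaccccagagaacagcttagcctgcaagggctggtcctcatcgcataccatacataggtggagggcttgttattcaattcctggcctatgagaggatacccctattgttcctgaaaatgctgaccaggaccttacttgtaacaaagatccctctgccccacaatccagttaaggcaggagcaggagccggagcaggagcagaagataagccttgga
The Cd34 window held 1 ETS core, the Mcam window 1 and the Tek window 0. Of the 29 member promoters 21, or 72.4%, held the ETS core, against 71.4% of 32851 promoters of the reference. The hypoxia response core, ACGTG or GCGTG on either strand, was in 14 of 29, or 48.3%, against 43.8%. CACGTG, which contains the first of these, was in 1 of 29, or 3.45%, against 7.15%, and ACAAT, a SOX core, was in 6 of 29, or 20.7%, against 31.0%. These are counts of letters and say nothing of binding.

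Among the receptors, those called higher were not the main VEGF receptors. Flt4, the VEGF-C receptor of lymphatic and sprouting endothelium, read 16.5, 9.80, 17.9, 10.2 and 18.8 CPM in Sham Veh and 28.8, 20.2 and 28.1 CPM in TAC Veh, and rose by 0.85 (SE 0.26, limma adjusted p = 0.0290). Notch4, the endothelial Notch receptor, rose by 0.93 (SE 0.30, limma adjusted p = 0.0312), with 14.4 to 34.7 CPM in Sham Veh and 36.1 to 56.9 CPM in TAC Veh. Neither gene's groups overlapped.

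Nrp2, a co-receptor for VEGF-C and semaphorins, rose by 0.74 (SE 0.22, limma adjusted p = 0.0238), and Robo4, the endothelial Roundabout receptor, by 0.63 (SE 0.21, limma adjusted p = 0.0412). Tek, which encodes TIE2, read 73.0, 73.0, 77.7, 50.6 and 53.7 CPM in Sham Veh and 87.1, 81.9 and 92.7 CPM in TAC Veh. The Tek groups did not overlap and the log2 fold change was 0.43 (SE 0.14, limma adjusted p = 0.0333), little more than the median of all genes. With TMM factors the log2 fold changes of these 5 receptors ranged from 0.10 (Tek) to 0.60 (Notch4), and none was called. Of 8 limma fits that each left out 1 library, Tek and Robo4 lost their calls in 5, Flt4 and Notch4 in 4 and Nrp2 in 3.

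Kdr, which encodes VEGFR2, read 280, 178, 186, 92.1 and 114 CPM in Sham Veh and 275, 179 and 185 CPM in TAC Veh. The 2 lowest Sham Veh values were those of S19 and S20, which carried the atrial transcripts, and the other Sham Veh libraries spanned the range of TAC Veh. The Kdr log2 fold change was 0.41 (SE 0.29, limma adjusted p = 0.296), and without the 3 libraries with atrial transcripts it was -0.0076. Flt1, which encodes VEGFR1, differed by 0.32 (SE 0.20, adjusted p = 0.224) and by -0.01 with TMM factors.

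Of the other receptors, Tie1, the partner of TIE2, differed by 0.71 (adjusted p = 0.0521) and Notch1 by 0.67 (adjusted p = 0.102), and both lay wholly above Sham Veh. Nrp1, the VEGF-A co-receptor, differed by 0.58, Ednrb and Ednra, the endothelin receptors, by 0.57 and 0.27, and none of these passed. Aplnr read 97.7, 58.3, 58.1, 17.4 and 14.9 CPM in Sham Veh and 124, 81.6 and 45.4 CPM in TAC Veh, so that its log2 fold change of 1.0 had an SE of 0.54 (limma adjusted p = 0.172).

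**Figure D2:**
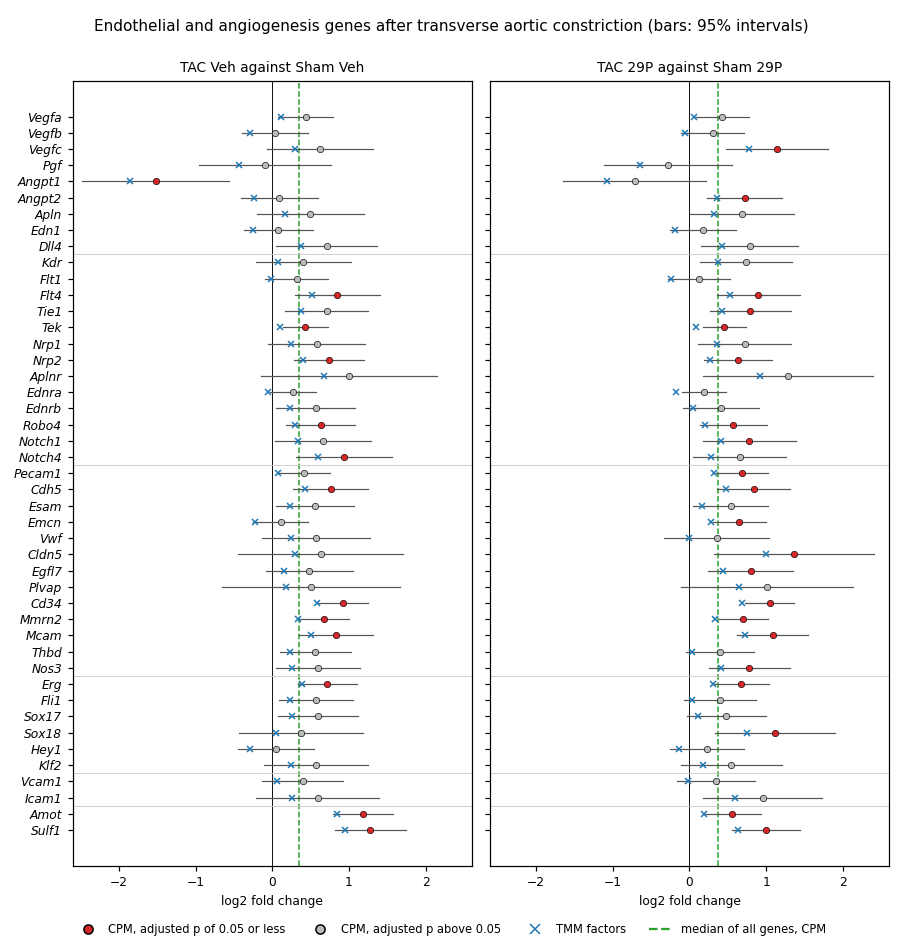
Log2 fold change of 45 members in TAC Veh against Sham Veh and in TAC 29P against Sham 29P. Selp, with a library listed at 0, is left out. Points are CPM values, red where the limma adjusted p was 0.05 or less and grey otherwise, bars are 95% intervals, crosses are TMM values and the dashed lines are the medians of all genes, 0.35 and 0.37. Angpt1 lies to the left of 0 in both, and Amot, Sulf1 and Cd34 lie far to the right in TAC Veh.

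Angpt1 was the only member called lower in this comparison. It read 34.6, 29.5, 38.9, 106 and 82.0 CPM in the Sham Veh libraries S5, S6, S13, S19 and S20 and 14.2, 21.4 and 18.4 CPM in TAC Veh. All TAC Veh values lay below all Sham Veh values, and the 2 highest Sham Veh values were those of the libraries with atrial transcripts. The log2 fold change was -1.52 (SE 0.46, limma adjusted p = 0.0257), and -1.85 with TMM factors (adjusted p = 0.0180). Without the 3 libraries with atrial transcripts it was -0.94 (adjusted p = 0.0259). The exact two-sided permutation test over the 8 libraries gave p = 0.0536, where the smallest p it can give is 0.0179. Leaving out Sham Veh S19, TAC Veh S2 or TAC Veh S16 took the adjusted p past the threshold, to 0.0594, 0.129 and 0.0614, with log2 fold changes of -1.26, -1.36 and -1.54.

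The other ligands were not called. Vegfa read 228, 127, 202, 146 and 208 CPM in Sham Veh and 227, 226 and 273 CPM in TAC Veh, a log2 fold change of 0.44 (SE 0.17, limma adjusted p = 0.0650) and 0.11 with TMM factors. Angpt2 read 2.73 to 5.76 CPM in Sham Veh and 3.13 to 5.94 CPM in TAC Veh, and its difference of 0.09 (SE 0.24, limma adjusted p = 0.793) became -0.24 with TMM factors. Vegfb, Pgf, the placental growth factor, and Edn1, the endothelin precursor, differed by 0.04, -0.10 and 0.08. Vegfc, the lymphatic growth factor, Apln, the apelin precursor, and Dll4, the tip cell Notch ligand, differed by 0.63, 0.50 and 0.71, with adjusted p of 0.159, 0.265 and 0.0974.

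The ratio of Angpt2 to Angpt1 does not depend on the scaling of a library. Its log2 value ranged from -4.24 to -2.89 in Sham Veh (mean -3.58) and from -2.77 to -1.26 in TAC Veh (mean -1.97), a difference of 1.61 without overlap. The exact two-sided permutation p was 0.0179, the smallest possible, and 0.429 after Benjamini-Hochberg adjustment over the 36 ratio tests made. Without the libraries with atrial transcripts the difference was 1.18 (exact permutation p = 0.1, the smallest that 3 libraries against 3 allow).

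The 2 modulators had the largest increases of the called members. Sulf1, an extracellular sulfatase that trims heparan sulfate and so alters growth factor binding, read 20.7, 21.8, 20.9, 33.1 and 28.7 CPM in Sham Veh and 68.5, 44.3 and 70.2 CPM in TAC Veh. Amot, angiomotin, a junction protein of migrating endothelial cells, read 18.1, 13.7, 16.3, 11.4 and 11.2 CPM in Sham Veh and 32.5, 29.3 and 32.7 CPM in TAC Veh. Neither gene's groups overlapped. Sulf1 was 2.43-fold higher, a log2 fold change of 1.28 (SE 0.22, limma adjusted p = 0.00186), and Amot 2.26-fold higher, a log2 fold change of 1.18 (SE 0.19, adjusted p = 0.00135). With TMM factors they were 0.95 and 0.85 higher, with adjusted p of 0.0103 and 0.0109. The study picked out both genes on these same libraries, so they are not independent evidence of a direction.

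Of the transcription factors, Erg, the ETS factor that maintains endothelial identity, rose by 0.72 (SE 0.18, limma adjusted p = 0.0130), with 18.3 to 33.4 CPM in Sham Veh and 38.1 to 45.4 CPM in TAC Veh. Fli1, its relative, differed by 0.57, Sox17, an arterial factor, by 0.60, Sox18, a factor of lymphatic commitment, by 0.38, Klf2, the shear stress factor, by 0.57 and Hey1, a Notch target, by 0.05, and none of these 5 passed. The adhesion genes Vcam1 and Icam1, which hold leukocytes on activated endothelium, differed by 0.40 and 0.59 with adjusted p of 0.236 and 0.243. Selp read 0.0896 to 0.450 CPM in Sham Veh and 0.245 to 1.23 CPM in TAC Veh, and no fold is given for it.

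The second comparison, TAC 29P against Sham 29P, asks the same of the mice that received the compound. It shares no library with the first. The same estimate of spread per gene, from all 17 libraries, served both comparisons, so their calls are not independent. Here 21 members were higher and 0 lower at a limma adjusted p of 0.05 or less, against 31.4% and 1.12% of all genes, and 31 were higher and 0 lower at an unadjusted p of 0.05 or less, against 43.5% and 1.96%. The median log2 fold change was 0.68 for the members and 0.37 for all genes. With TMM factors 3 members, Cd34, Mmrn2 and Mcam, were higher and 0 lower, against 5.64% and 5.20% of all genes, and the medians were 0.31 and 0.01. The groups did not overlap for 12 members, which all lay above, against 25.0% of all genes above and 1.08% below. The members higher here and in TAC Veh against Sham Veh numbered 11, all of those called in TAC Veh except Notch4, which differed by 0.65 (adjusted p = 0.0855) in the mice given 29P. The share of all genes called in both is not given here.

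Of the 13 identity markers 9 were called, beside 6 of 13 receptors, 2 of 9 ligands, 2 of 6 transcription factors, both modulators and 0 of 3 adhesion genes. Cd34 read 153, 94.3 and 107 CPM in Sham 29P (S4, S14 and S15), and from 198 through a median of 237 to 300 CPM in TAC 29P. The groups did not overlap, and Cd34 was 2.07-fold higher, a log2 fold change of 1.05 (SE 0.15, limma adjusted p = 8.9e-04), and 0.68 with TMM factors (adjusted p = 0.00469). Mcam read 51.0, 21.6 and 40.2 CPM in Sham 29P and 67.2 to 89.0 CPM in TAC 29P, again without overlap, and rose by 1.09 (SE 0.22, limma adjusted p = 0.00392). Mmrn2 rose by 0.70 (SE 0.15, limma adjusted p = 0.00483), and with TMM factors Mcam and Mmrn2 rose by 0.72 and 0.34.

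Pecam1 read 193, 104 and 185 CPM in Sham 29P and 222 to 277 CPM in TAC 29P. It rose by 0.68 (SE 0.16, limma adjusted p = 0.00814), and by 0.39 (adjusted p = 0.0662, no longer called) without S14, whose value was the lowest. Emcn rose by 0.65 (SE 0.16, limma adjusted p = 0.0108) and Cdh5 by 0.84 (SE 0.23, limma adjusted p = 0.0143), while Cldn5, the tight junction claudin, Egfl7, a secreted endothelial matrix factor, and Nos3, the endothelial nitric oxide synthase, rose by 1.37, 0.80 and 0.78. Without S14 the Cdh5 difference was 0.60 (limma adjusted p = 0.120), and without S15 that of Emcn was 0.44 (limma adjusted p = 0.0641). With TMM factors Pecam1 and Emcn were 0.32 and 0.29 higher and were not called.

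Of the receptors, Flt4 rose by 0.90, Tie1 by 0.79, Notch1 by 0.78, Nrp2 by 0.64, Robo4 by 0.57 and Tek by 0.45, with limma adjusted p of 0.0173 to 0.0466. Without S14 the differences were 0.52 for Flt4, 0.57 for Nrp2, 0.26 for Robo4 and 0.34 for Tek, with limma adjusted p of 0.164, 0.148, 0.364 and 0.149, and none of these 4 was called. Of 9 limma fits that each left out 1 library, Robo4 lost its call in 5, Nrp2 in 4, and Flt4 and Tek in 1 each. Kdr differed by 0.74 (SE 0.28, adjusted p = 0.0533) and Flt1 by 0.13 (SE 0.19, adjusted p = 0.62), the latter -0.24 with TMM factors. Among transcription factors Erg rose by 0.67 and Sox18 by 1.12, and the modulators Sulf1 and Amot by 1.0 and 0.56. Amot, 0.19 higher with TMM factors, overlapped between the groups, with 17, 21.4 and 11.5 CPM in Sham 29P and 21.3 to 28.9 CPM in TAC 29P. Without S15, its lowest library, the Amot difference was 0.32 (limma adjusted p = 0.190).

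Of the ligands, Vegfc rose by 1.14 (SE 0.32, limma adjusted p = 0.0163), from 7.29, 7.89 and 2.93 CPM in Sham 29P to 10 to 16.3 CPM in TAC 29P. Angpt2 rose by 0.72 (SE 0.23, limma adjusted p = 0.0282), from 3.04, 2.68 and 2.70 CPM to 3.93 to 5.58 CPM, with no overlap, and was 0.36 higher with TMM factors. Leaving out S14, S15 or TAC 29P S3 took its limma adjusted p to 0.115, 0.0742 and 0.0579. The Angpt2 mean was 2.81 CPM in Sham 29P, against 4.40 in Sham Veh, 4.71 in TAC Veh and 4.67 in TAC 29P. Angpt1 read 48.2, 54.3 and 31.6 CPM in Sham 29P and 23.3, 13.9, 26.6, 22.2, 23.2 and 79.0 CPM in the TAC 29P libraries S1, S3, S8, S9, S11 and S18. All TAC 29P values except that of S18, which carried atrial transcripts, lay below the Sham 29P values. Over all libraries the difference was -0.71 (SE 0.44, limma adjusted p = 0.212), and without the 3 libraries with atrial transcripts it was -1.03 (adjusted p = 0.00798).

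Vegfa lay wholly above its controls, with 198, 140 and 193 CPM in Sham 29P and 214 to 261 CPM in TAC 29P, but its log2 fold change of 0.42 (SE 0.17, limma adjusted p = 0.0567) was close to the median of all genes and was 0.06 with TMM factors. The members not named so far in this comparison were not called and had log2 fold changes from -0.28 (Pgf) to 1.28 (Aplnr, SE 0.53). Selp was listed at 0 in Sham 29P S15, with 0.646 and 0.423 CPM in S4 and S14 and 0.227 to 2.27 CPM in TAC 29P, and no fold is given.

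Without the 3 libraries with atrial transcripts, 27 members were higher and 1, Angpt1, lower in TAC 29P against Sham 29P, beside 30.2% and 1.33% of all genes. In TAC Veh against Sham Veh 9 were then higher and 1, Angpt1, lower, beside 13.4% and 0.937% of all genes. The members' median was then 0.71 and 0.45, against 0.37 and 0.33 for all genes. Leaving out Sham 29P S14 reduced the members called higher in TAC 29P from 21 to 7, and leaving out TAC Veh S2 reduced those in TAC Veh from 12 to 3, Cd34, Amot and Sulf1. The shares of all genes in these fits are not given here, so a fall over all genes cannot be told apart. A covariate for the run of animal numbers, blocks of numbers spread unevenly over the groups, was also tried. TAC 29P shared a run with Sham 29P only through S4, and with TAC Veh only through S2. Run and group were largely confounded in those comparisons. With this covariate 9 members were higher and 1, Angpt1, lower in TAC Veh against Sham Veh, beside 19.2% and 1.28% of all genes. Flt4, Tek, Nrp2, Robo4, Notch4 and Cdh5 were then no longer called, and Aplnr, Ednrb and Vcam1 were. In TAC 29P against Sham 29P the same covariate left 8 members higher, Vegfc, Ednrb, Pecam1, Cd34, Mmrn2, Mcam, Erg and Sulf1, and 1 lower, Angpt1, beside 4.19% and 0.166% of all genes.

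**Figure D3:**
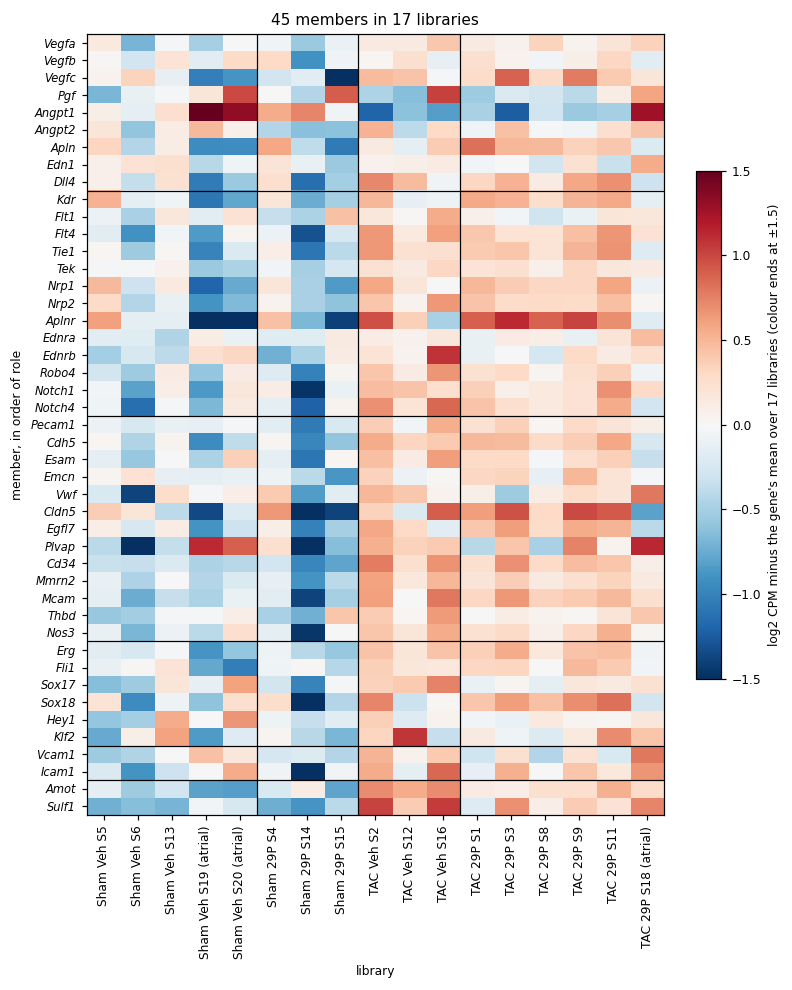
Log2 CPM of 45 members (rows, by role, without Selp) in the 17 libraries (columns, by group), with each gene's mean over the libraries subtracted and the colour scale running from -1.5 to 1.5. The TAC libraries are mostly above the gene means, Sham 29P S14 is below them for most members, and Angpt1 is high in S19, S20 and S18.

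Members differed between libraries with and without atrial transcripts inside a single group. In Sham Veh 8 members lay above and 14 below the other libraries of the group in both S19 and S20, and in TAC 29P 14 lay above and 22 below in S18. Over all genes tested 14.8% lay above and 11.4% below in Sham Veh, and 28.2% above and 26.9% below in TAC 29P. In both groups 7 members lay above, beside 7.78% of all genes: Angpt1, Ednra, Icam1, Pgf, Plvap, Sulf1 and Vcam1. In both groups 11 lay below, beside 4.91% of all genes: Apln, Aplnr, Cd34, Dll4, Egfl7, Erg, Fli1, Kdr, Nrp1, Nrp2 and Vegfc. Angpt1 was 82.0 and 106 CPM in S20 and S19, against 29.5 to 38.9 CPM in the other Sham Veh libraries, and 79.0 CPM in S18, against 13.9 to 26.6 CPM in the other TAC 29P libraries. Plvap, the diaphragm protein of fenestrated and endocardial endothelium, was 9.89 to 11.5 CPM against 1.66 to 4.14 CPM in Sham Veh, and 11.6 against 3.78 to 8.86 CPM in TAC 29P. Kdr went the other way, with 92.1 and 114 CPM against 178 to 280 CPM, and 178 against 234 to 290 CPM. All 3 libraries came from mice of 1 run of animal numbers, which held no other library, so atrial transcripts and that run cannot be told apart.

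**Figure D4:**
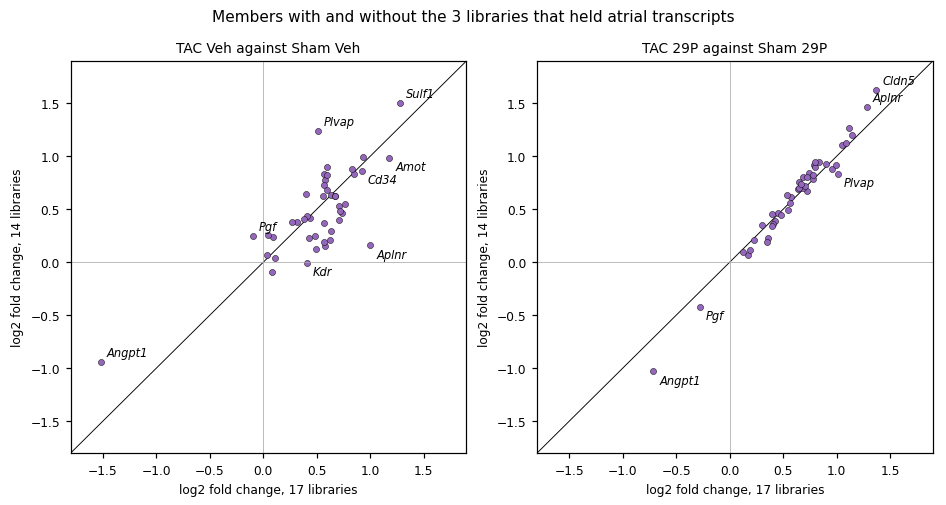
Log2 fold change of 45 members (without Selp) with all 17 libraries (horizontal axis) and without the 3 libraries with atrial transcripts (vertical axis), for TAC Veh against Sham Veh and TAC 29P against Sham 29P. The line marks equal values. Kdr falls from 0.41 to -0.0076 in TAC Veh, and Angpt1 moves from -1.52 to -0.94 there and from -0.71 to -1.03 in TAC 29P.

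The third comparison, TAC 29P against TAC Veh, asks whether the compound changed these genes under pressure overload. No member passed the limma adjusted p of 0.05 (0 higher and 0 lower, lowest adjusted p 1.0), as was so for all genes tested (0% higher and 0% lower). At an unadjusted p of 0.05 or less 0 members were higher and 2 lower, Sulf1 and Amot, against 1.05% and 0.931% of all genes. The study had named both genes as lower in this comparison on these same libraries, so their count cannot be read against that share. The members' median log2 fold change was -0.08 and that of all genes -0.02, and the members ranged from -0.49 to 0.58.

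Amot read 32.5, 29.3 and 32.7 CPM in TAC Veh and 21.7, 21.3, 23.6, 23.7, 28.9 and 24.2 CPM in TAC 29P. All 6 TAC 29P libraries lay below all 3 TAC Veh libraries. The log2 fold change was -0.40 (95% interval -0.78 to -0.03, limma unadjusted p = 0.0375, adjusted p = 1.0), and the exact two-sided permutation p was 0.0119, the smallest that 3 against 6 can give. With TMM factors it was -0.38 (unadjusted p = 0.0581). In 9 limma fits that each left out 1 library, the Amot log2 fold change ranged from -0.46 to -0.37. In 6 of these fits the limma unadjusted p of Amot rose past the unadjusted threshold, and it was highest without TAC Veh S16, at 0.0961.

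Sulf1 read 68.5, 44.3 and 70.2 CPM in TAC Veh and 29.7, 54.7, 36.4, 44.4, 39.5 and 56.2 CPM in TAC 29P, so the groups overlapped. The log2 fold change was -0.49 (95% interval -0.94 to -0.05, limma unadjusted p = 0.0328, adjusted p = 1.0; exact permutation p = 0.119). Without the libraries with atrial transcripts it was -0.57 (unadjusted p = 0.00937). Without TAC Veh S2 it was -0.39 (limma unadjusted p = 0.132), and without TAC Veh S16 it was -0.38 (limma unadjusted p = 0.146). Of 9 limma fits that each left out 1 library, 5 took the unadjusted p of Sulf1 past 0.05. Both genes were still higher in TAC 29P than in Sham 29P, as given above.

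The groups did not overlap for 2 members, which lay below, Amot and Sox17, against 0.987% of all genes below and 0.839% above. Sox17 read 15.2, 15.6 and 20.1 CPM in TAC Veh and 10.8 to 14 CPM in TAC 29P, a log2 fold change of -0.44 (limma unadjusted p = 0.0852, exact permutation p = 0.0119). For the main ligands, receptors and markers the intervals bound the difference. They ran from -0.39 to 0.31 for Vegfa, from -0.31 to 0.88 for Kdr, from -0.65 to 0.15 for Flt1, from -0.43 to 0.25 for Pecam1, from -0.52 to 0.12 for Cd34 and from -0.35 to 1.51 for Angpt1. Red blood cell transcripts also differed between these groups, with summed CPM of 3082 to 4992 in TAC Veh and 1036 to 4151 in TAC 29P, all 5 genes lower at an unadjusted p of 0.05 or less, and their part in these values was not tested.

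**Figure D5:**
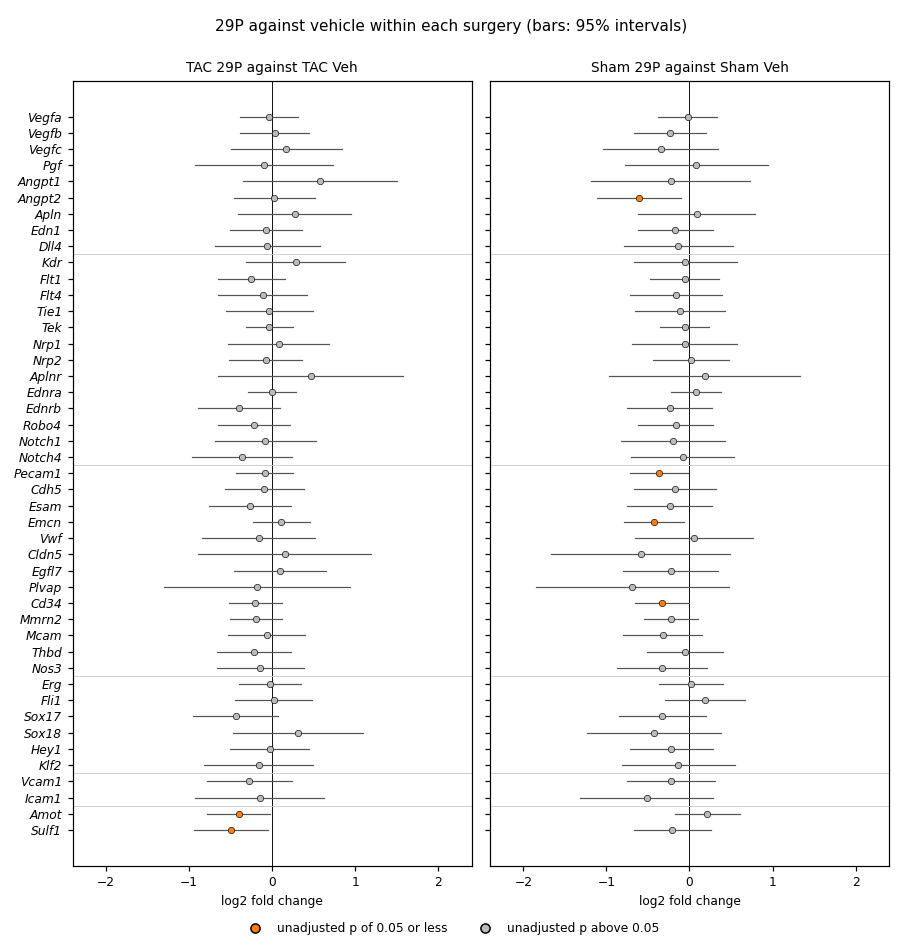
Log2 fold change of 45 members (without Selp), with 95% intervals, in TAC 29P against TAC Veh and in Sham 29P against Sham Veh, in orange where the unadjusted p was 0.05 or less. Only Amot and Sulf1 are orange in TAC, at -0.40 and -0.49, and only Angpt2, Emcn, Pecam1 and Cd34 in Sham.

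In mice without pressure overload, Sham 29P against Sham Veh, no member passed the adjusted threshold in limma (lowest adjusted p 0.651), against 0% of all genes higher and 0.00617% lower. At an unadjusted p of 0.05 or less 0 members were higher and 4 lower, against 1.60% and 5.89% of all genes. The libraries overlapped for all members, while 0.629% of all genes lay wholly above and 1.51% wholly below. The members' median was -0.19, against -0.06 for all genes.

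The 4 genes were Angpt2, at -0.61 (95% interval -1.11 to -0.11, limma unadjusted p = 0.0204), Emcn, at -0.43 (unadjusted p = 0.0223), Pecam1, at -0.37 (unadjusted p = 0.0424), and Cd34, at -0.33 (unadjusted p = 0.0491). Their exact permutation p ranged from 0.0536 to 0.0893. Emcn read 48.9, 55.3, 43.7, 43.2 and 44.0 CPM in Sham Veh and 45.1, 35.9 and 26.0 CPM in Sham 29P, and only S4 lay within the Sham Veh range. The values for Pecam1 and Cd34 were nearest 0 without S14, at -0.08 (limma unadjusted p = 0.562) and -0.18 (limma unadjusted p = 0.285). In 8 limma fits that each left out 1 library, the unadjusted p often rose above 0.05. It did so in 6 fits for Cd34, 5 for Pecam1, 3 for Angpt2 and 2 for Emcn. Emcn rested on S15, without which it was -0.22 (limma unadjusted p = 0.223).

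The surgery by treatment interaction, the test of whether the response to TAC differed with 29P, was past the adjusted threshold for 0 members in limma (lowest adjusted p 0.998), against 0.00617% of all genes higher and 0% lower. At an unadjusted p of 0.05 or less it was, in limma across all genes, higher for Emcn, at 0.54 (95% interval 0.04 to 1.04, unadjusted p = 0.0359), and lower for Amot, at -0.62 (95% interval -1.16 to -0.07, unadjusted p = 0.0284), against 1.98% and 0.863% of all genes. Of 17 limma fits that each left out 1 library, 8 took the unadjusted p of the interaction past 0.05 for Emcn and 6 for Amot. Without S15 the Emcn interaction was 0.33 (limma unadjusted p = 0.161). The Amot interaction was -0.43 (limma unadjusted p = 0.124) without the libraries with atrial transcripts and -0.41 (limma unadjusted p = 0.116) without S14. Over all libraries Amot was 1.18 higher in TAC with Veh and 0.56 higher with 29P. Angpt1, with an interaction of 0.80 (95% interval -0.53 to 2.14), differed by -0.09 without the libraries with atrial transcripts. Kdr had an interaction of 0.33 (unadjusted p = 0.426), and 0.85 (unadjusted p = 0.0148) without those libraries.

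Other genes of the same pathways moved with TAC. A further 43 genes of VEGF, angiopoietin, apelin, endothelin and Notch signalling were tested. Of these, 17 were higher and 0 lower in TAC Veh against Sham Veh, beside 22.5% and 1.91% of all genes. With TMM factors 5 were higher and 1 lower, beside 4.03% and 5.51% of all genes. The 1 lower was Fgf1, a fibroblast growth factor, at -0.43. Svep1, a large adhesion protein that binds TIE1, rose by 2.43 (limma adjusted p = 3.2e-04), Edn3, an endothelin precursor, by 2.26 (adjusted p = 0.00119) and Ece2, an endothelin converting enzyme, by 1.95 (adjusted p = 0.0380). In the mice given 29P, 17 of the 43 were higher and 0 lower, beside 31.4% and 1.12% of all genes. In TAC 29P against TAC Veh 0 of the 43 were called. At an unadjusted limma p of 0.05 or less 2 were lower, beside 0.931% of all genes. These were Svep1 at -0.78 (unadjusted p = 0.0159) and Ptprb, the endothelial phosphatase VE-PTP, at -0.36 (unadjusted p = 0.0234).

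Lists of vessel types gave the counts that follow, and no difference between the lists was tested. Beside them, 22.5% of all genes were higher and 1.91% lower in TAC Veh, or 4.03% and 5.51% with TMM factors. Of 11 genes of sprouting endothelium, 6 of them members, 4 were higher in TAC Veh, or 3 with TMM factors. Esm1, the tip cell proteoglycan endocan, rose by 1.87 (limma adjusted p = 0.0102), from a mean of 1.35 CPM in Sham Veh to 5.89 CPM in TAC Veh. Cd276 rose by 1.57 and Nid2, a basement membrane nidogen, by 0.96. Of 10 arterial genes 4 were higher, led by Unc5b, a netrin receptor, at 1.5, with Fbln5 at 1.01 and Efnb2 at 0.75. Of 6 lymphatic genes 4 were higher, namely Pdpn, podoplanin, at 1.22, Ccl21a at 1.16, Reln at 1.07 and the member Flt4. The lymphatic markers Lyve1 and Prox1 were not called, and 5 of the 6 genes had a log2 fold change above 0. Of 8 capillary genes 0 were higher, of 6 venous genes 1, Ephb4, and of 6 endocardial genes 1, Nfatc1. With TMM factors 1 arterial, 2 lymphatic, 0 capillary, 0 venous and 0 endocardial genes were higher, and 1 capillary gene, Cd36, the fatty acid transporter, was lower. Of 24 other endothelial markers 5 were higher, among them Sele, E-selectin, at 1.45 and Cd93 at 0.73, and 1 with TMM factors.

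Markers of other cells moved beside the endothelial genes. The shares of all genes were again 22.5% higher and 1.91% lower in TAC Veh, or 4.03% and 5.51% with TMM factors. In TAC Veh against Sham Veh 6 of 8 fibroblast genes were higher, led by Postn, periostin, at 3.43, Col1a1 at 2.09 and Col3a1 at 1.74, and the summed fibroblast level was 920 to 1382 CPM in Sham Veh and 2139 to 3710 CPM in TAC Veh. Of 8 macrophage genes 7 were higher, led by Adgre1 at 1.15, C1qb at 1.01 and C1qa at 0.96, with sums of 324 to 378 CPM and 476 to 741 CPM. Of 8 pericyte genes 4 were higher, led by Cspg4 at 1.24, Notch3 at 1.16 and Pdgfrb at 1.06. Of 6 smooth muscle genes 0 were higher, and of 8 cardiomyocyte genes 1 was lower, Tnni3, at -0.54. Of 5 proliferation genes 2 were higher, Mki67 at 1.29 and Top2a at 0.93, and all 5 red blood cell genes were higher on the CPM scale and 0 with TMM factors. With TMM factors 3 fibroblast, 2 macrophage and 2 pericyte genes were higher, 4 cardiomyocyte genes were lower, and 0 smooth muscle and 0 proliferation genes were called. Their part in the members' values was not tested.

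The 46 genes were annotated on mm10 in GENCODE vM21, and 14 share exon bases with another annotated gene. Angpt1 lies at chr15:42424723-42676977 on the minus strand, over an antisense gene, Gm17473, which shares exon bases with it. Cd34 lies at chr1:194938819-194961279 (+), Mcam at chr9:44134469-44142727 (+), Sulf1 at chr1:12692277-12861192 (+), Amot at chrX:145446425-145505181 (-) and Kdr at chr5:75932827-75978458 (-). Cd34 and Mcam share exon bases with Gm16897 and Gm10687. Whether reads were counted by strand was not given in the sources used here, so reads of such pairs may not be told apart.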

How the data were processed

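Left ventricular apex RNA of 17 mice was sequenced as polyA mRNA libraries (NEBNext Ultra II). The authors aligned reads with STAR 2.3.7 in Partek to mm10, per the labels, and deposited a table of CPM values for 21798 genes, each raised by a constant of 0.0001. The counting tool, its use of strand and any filter were not given in the sources used here. Whole reads were not recovered, since 81.6% to 84.1% of values under 1 CPM were whole multiples of 1 read within 0.05 read, and the depth of about 14200000 to 23800000 reads is an estimate from those steps that limits precision at low values.

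Groups came from the labels. Because the values were CPM, the log2 of the deposited values was fitted with limma 3.58.1 (R 4.3.3) as 4 group means with a variance trend and 13 residual degrees of freedom, for 16218 genes with at least 0.5 CPM in at least 3 libraries. P-values were adjusted by Benjamini-Hochberg over all these genes, and single values were also tested by exact two-sided permutation of libraries. The labels give each library its own animal number. The fit was tested on simulated data. No 2 libraries shared more than 0.277% of their values. Promoters came from RefSeq and gene positions from GENCODE. Figures were drawn with matplotlib 3.10.9 and tables handled with pandas 2.3.3.

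The 46 members and all gene lists were chosen with earlier results of these data known. Named with full statistics were, in each role, up to 4 members each way with the largest change among those called in TAC Veh against Sham Veh, every member with an unadjusted p of 0.05 or less in a comparison of 29P with Veh or in the interaction, and always Pecam1, Cdh5, Kdr, Flt1, Tek, Angpt1, Angpt2 and Vegfa, and of each other list up to 3 genes each way. Alternatives were TMM factors, median-of-ratios factors, totals without mitochondrial genes, added constants of 0.1 and 1, other filters, a covariate for the run of animal numbers, only the groups compared, no variance trend, and leaving out libraries. Of the fixed lists, Figf, Apela, Edn2 and Mmrn1 had no value and were not analysed here.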

Additional observations from a re-analysis of the deposited data

Results flagged for a closer look

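In the 92 groups of 5 or 6 libraries tested for a value standing apart (Dixon's criterion on log2 CPM, which flags about 5% of groups by chance), 6 stood apart, and 5 of the 6 were values of TAC 29P S18, a library with atrial transcripts. In S18 Angpt1 was the highest of the 6 TAC 29P libraries, with a log2 CPM of 6.30. The apelin receptor Aplnr was the lowest there, at 5.81, as were Cdh5, at 7.60, Egfl7, at 6.18, and the lymphatic factor Sox18, at 4.75. In Sham Veh S6, Selp was the lowest of the 5 libraries, at -3.48, a level of 0.0896 CPM. Fold changes without the libraries with atrial transcripts stand beside the results above.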

How the results depend on the processing

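No paired analysis was possible because the labels give each library its own number and no number is shared between groups. The run of animal numbers spans groups unevenly and was tried as a covariate. Counts of members called depended on the scaling and on single libraries. Shares of all genes are given above for TMM factors, the unadjusted threshold, the run covariate and the fit without the atrial libraries. They are not given for the other alternatives, so the counts there are not read as particular to the members. In TAC Veh against Sham Veh, 12 were higher, against 3 with TMM factors, 4 with median-of-ratios factors, 5 with totals without mitochondrial genes, 23 at an unadjusted p of 0.05 or less, and, in alternatives chosen after seeing the data, 2 with TMM factors and without the atrial libraries and 22 without these and S14. In TAC 29P against Sham 29P, 21 were higher, against 3, 3 and 7 under the 3 scalings, 8 with a covariate for the run of animal numbers, 9 with TMM factors and without the atrial libraries and 12 without these and S14. There 0 were lower, against 1 with the run covariate, 1 without the atrial libraries, 1 with TMM factors as well and 1 without S14 as well. Cd34 and Sulf1 kept their calls in TAC Veh under every alternative run, and Amot under all but TMM factors without the atrial libraries. In TAC 29P against TAC Veh, Sham 29P against Sham Veh and the interaction, adjusted counts stayed at 0.

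Unadjusted counts moved as follows. In TAC 29P against TAC Veh, 0 higher became 2 with TMM factors and without the atrial libraries, and 2 lower became 1 under each of the 3 scalings and the run covariate, 4 without the atrial libraries and 4 without S14 as well. In Sham 29P against Sham Veh, 4 lower became 2 with only the groups compared, 2 without the variance trend, 2 with the run covariate, 7 with TMM factors and without the atrial libraries and 2 without S14 and these. For the interaction, 1 higher became 0 with totals without mitochondrial genes, 0 with the run covariate, 5 without the atrial libraries, 7 with TMM factors as well and 4 without S14 as well, and 1 lower became 0, 0 and 2 with the run covariate, without the atrial libraries and without S14 as well.

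Leaving out each library in turn gave 3 to 14 members higher and 0 to 1 lower in TAC Veh (3 without TAC Veh S2, 5 without S16, 6 without Sham Veh S19) and 7 to 31 higher and 0 to 1 lower in TAC 29P (7 without Sham 29P S14, 13 without TAC 29P S11, 31 without Sham 29P S4). Unadjusted, it gave 0 to 4 lower in TAC 29P against TAC Veh, 0 to 1 higher and 2 to 10 lower in Sham 29P against Sham Veh, and 0 to 4 higher and 0 to 1 lower for the interaction. In TAC Veh against Sham Veh, some log2 fold changes that were not called changed sign: Angpt2 (0.09) became -0.24, -0.23 and -0.065 under the 3 scalings, -0.089 with TMM factors and without the atrial libraries, -0.072 without Sham Veh S6 and -0.10 without TAC Veh S2, and up to 0.36 without TAC Veh S12. Emcn (0.11) became -0.22, -0.20 and -0.041 under the scalings, -0.29 with TMM factors and without the atrial libraries and -0.012 without TAC Veh S2, and up to 0.20 without TAC Veh S12. Kdr (0.41) became -0.0076 without the atrial libraries, with or without S14, and -0.34 with TMM factors as well. Flt1 (0.32) became -0.013 with TMM factors, and Tek, called at 0.43, became -0.11 with TMM factors and without the atrial libraries. Beyond the construction of these alternatives, the cause was not tested.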
